A study of Homo sapiens with 12 samples.

Results

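The vehicle-only baseline of IOSE80 cells was described from the 3 libraries labelled 0.1% DMSO for 28 days, out of 12 samples in the labels and 11 libraries with values. IOSE80 is an immortalized line of normal human ovarian epithelial cells. DMSO is the usual solvent for hydrophobic compounds and is taken here as the vehicle. All samples of the series were IOSE80 cells kept for 28 days with their agent, namely 0.1% DMSO, bisphenol A (BPA, a building block of plastics) at 0.25 or 2500 nM, or E2. The members were chosen by their label alone, and no difference in level between DMSO and a treatment was tested. The 3 libraries of each BPA dose served only to describe spread. They show how far the same genes spread within a group that did not choose them, and how near their values came to those in DMSO. Nothing in the labels says that the replicates were separate cultures, so their spread may be technical.

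Values are FPKM, read fragments corrected for the length of the transcript and for the size of the library, which makes levels of different genes comparable per length. Of 30574 loci in each library, 14729 name exactly 1 protein-coding gene. Those on the strand and position of that gene in GENCODE 29, with 1 locus kept per gene, gave 14614 coding genes, which were ranked by mean FPKM. A gene was called present at a mean of at least 1 FPKM, and 9211 genes, or 63.0% of the 14614, were. Counts of list members present are to be read against this share. The depth behind the values is unknown, and the labels do not say whether strand was kept. A total of 1077 genes were listed at 0 in all 3 libraries. None of 40 genes that every cell uses was at 0. Since these were bulk samples, few cells with much of a transcript and many cells with little of it cannot be told apart.

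The ovarian surface epithelium is a single layer of mesothelial-type cells that covers the ovary. It is known for carrying epithelial features such as simple keratins beside mesenchymal ones such as vimentin, and it repairs the surface after each ovulation. Matrix metalloproteinases are secreted or membrane-bound enzymes that cut matrix proteins, and tissue inhibitors of metalloproteinases, the TIMPs, block them. Immortalized lines keep dividing, so their transcriptomes usually hold many transcripts of growth and cell division.

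The highest transcripts of DMSO-treated IOSE80 cells were those of the actin-binding thymosin TMSB4X, mitochondrially encoded subunits of complex I, GAPDH and the translation factor EEF1A1. TMSB4X stood at 3742, 3208 and 3329 FPKM in replicates 1, 2 and 3, and took 2.14% of all coding FPKM. MT-ND1 had 3083, 3195 and 3543 FPKM, and MT-ND3 had 2346, 2278 and 2041 FPKM. Replicate 3 was the highest for the first of these mitochondrial genes and the lowest for the second. GAPDH, an enzyme of glycolysis, had 1633, 1512 and 1633 FPKM. EEF1A1, which brings tRNAs to the ribosome, had 1452, 1314 and 1424 FPKM. Only 6 genes exceeded 1000 FPKM, the sixth being the chaperone HSP90AB1 at 1004 ± 23.0 (mean ± SD, n = 3). Their values are not fully their own: the pseudogene loci TMSB4XP8 (1303 FPKM) and EEF1A1P5 (677 FPKM) nearly repeat the sequences of TMSB4X and EEF1A1, so reads may have been split between copies. The other mitochondrial messenger RNAs lie on joined loci, 1 of which (MT-ATP8, MT-ATP6 and MT-CO3) had 8917 FPKM.

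The next ranks mixed ribosomal proteins with genes of the cytoskeleton, the cell surface and secretion. RPS12, RPL41, RPS2, RPS27, RPL19, RPS25, RPS18, RPL7A and RPL23A, all ribosomal proteins, were among the 30 highest, at 380 to 985 FPKM. Thymosin TMSB10 had 997, 863 and 968 FPKM. The annexin ANXA1, a calcium-dependent membrane binder known for anti-inflammatory action, had 825, 775 and 813 FPKM. Replicate 2 was the lowest of the 3 libraries in both genes. FTL, the ferritin light chain that stores iron, had 803 ± 42.4 FPKM, and the peroxiredoxin PRDX1 had 533 ± 39.2. The cytoskeleton was further represented by ACTB at 703, 904 and 718 FPKM and by TUBB at 620 ± 27.2. TIMP1, a secreted inhibitor of metalloproteinases, reached 518, 459 and 530 FPKM and rank 18. ANKRD1, a nuclear and sarcomeric protein known as a target of YAP signalling, stood at 408, 418 and 423 FPKM. Rank 30 was held by ubiquitin UBB at 375 FPKM, next to the tubulin TUBA1B at 366 FPKM on rank 31. EEF2, PTMA, S100A11, CALR and VIM were also among the 30.

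The 100 highest genes held 27.2% of the coding FPKM, and the 10 highest held 10.3%. By family, 28 of the 100 were cytosolic ribosomal proteins, 11 cytoskeletal proteins, 11 chaperones or folding enzymes and 5 enzymes of glycolysis. Ribosomal proteins as a family had a median of 121 FPKM over 74 genes, against 2.72 FPKM over all coding genes. Secreted or surface products among the 100 included TIMP1, MMP10 (rank 48), the antiviral tether BST2, the galectin LGALS1, the interferon-induced membrane protein IFITM3 and the integrin ITGB1. ID3, an inhibitor of helix-loop-helix factors, was also among them, at 226, 212 and 235 FPKM.

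**Figure D1:**
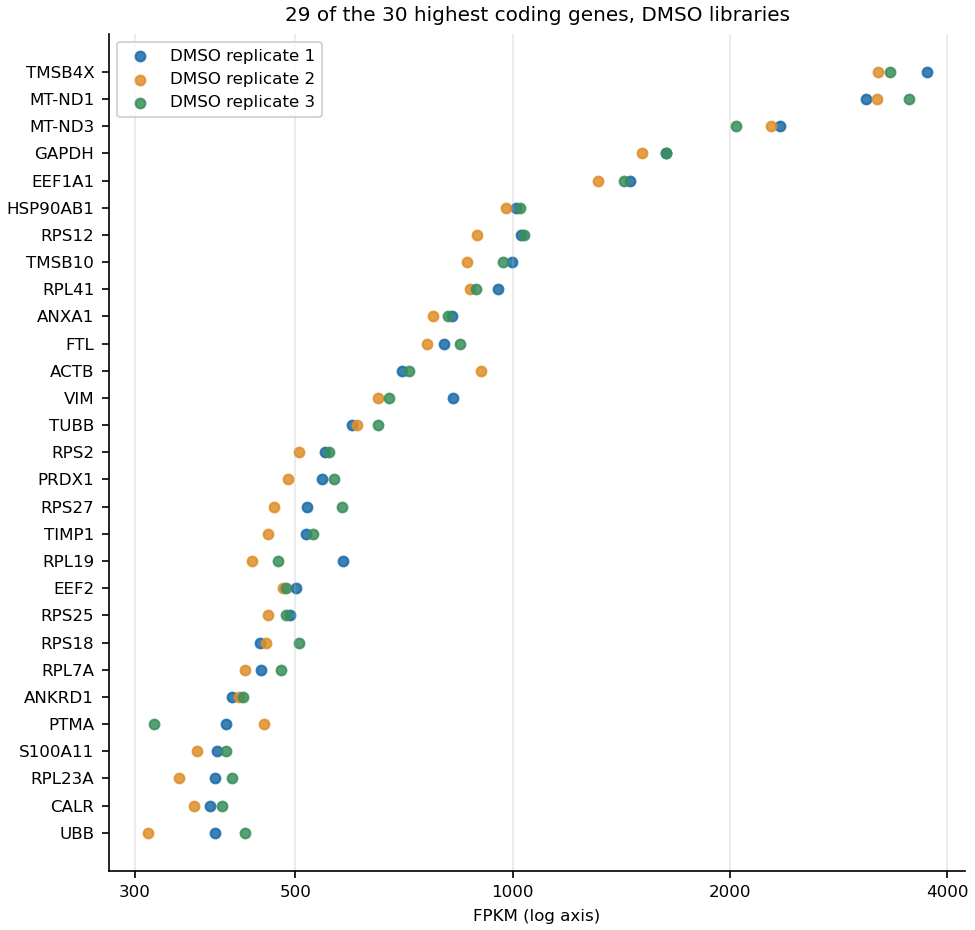
FPKM (log axis) of 29 of the 30 highest coding genes in each of the 3 DMSO libraries, 1 point per library. TMSB4X leads at 3208 to 3742 FPKM, UBB closes the list at 312 to 426 FPKM, and replicate 2 gives the lowest point for many of the ribosomal genes.

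The sequences just upstream of the start sites of highly read genes are shown because they carry recognisable core promoter elements. They come from the RefSeq table of build GRCh38.p14, and each line gives the 120 bases before the start, 5′ to 3′ on the gene's strand. Capitals mark TATAA on the gene's strand within 50 bases of the start, and CCAAT or GGGCGG on either strand anywhere in the 120 bases (ATTGG and CCGCCC are their opposite strands). TGACTCA, the classical AP-1 site, was also searched on both strands and is in none of them. A run of GGGCGG can overlap the next one.
EEF1A1 (chr6:73521033-73521152, minus strand): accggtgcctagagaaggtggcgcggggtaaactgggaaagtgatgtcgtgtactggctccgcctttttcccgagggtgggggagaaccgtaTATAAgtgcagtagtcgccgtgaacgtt
TMSB10 (chr2:84905536-84905655, plus strand): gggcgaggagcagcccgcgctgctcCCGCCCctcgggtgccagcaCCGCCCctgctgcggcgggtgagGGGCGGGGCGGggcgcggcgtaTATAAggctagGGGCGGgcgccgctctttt
ANXA1 (chr9:73151745-73151864, plus strand): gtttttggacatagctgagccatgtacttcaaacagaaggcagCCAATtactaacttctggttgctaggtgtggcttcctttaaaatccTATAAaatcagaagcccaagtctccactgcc
ANKRD1 (chr10:90921088-90921207, minus strand): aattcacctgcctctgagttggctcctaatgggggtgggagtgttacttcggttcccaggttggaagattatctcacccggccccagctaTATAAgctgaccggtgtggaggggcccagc
MMP10 (chr11:102780629-102780748, minus strand): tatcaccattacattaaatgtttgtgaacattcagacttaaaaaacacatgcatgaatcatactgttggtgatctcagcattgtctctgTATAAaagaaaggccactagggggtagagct
VIM (chr10:17228121-17228240, plus strand): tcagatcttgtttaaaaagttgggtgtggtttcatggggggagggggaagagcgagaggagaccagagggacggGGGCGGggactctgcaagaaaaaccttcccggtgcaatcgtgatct
ALDH1A1 (chr9:72953054-72953173, minus strand): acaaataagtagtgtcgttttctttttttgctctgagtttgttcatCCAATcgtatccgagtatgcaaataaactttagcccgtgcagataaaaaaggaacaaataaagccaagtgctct
The element TATAA began 28 to 31 bases before the start in the EEF1A1, TMSB10, ANXA1, ANKRD1 and MMP10 sequences, and VIM and ALDH1A1 have none there. TMSB4X and TIMP1, looked up as well but not printed, have none there either. The printed sequences were picked and do not stand for the highest genes. Of the 28 nuclear genes among the 30 highest, 23 have a promoter in the table, and 8 of these 23 (34.8%) hold TATAA in that window. All 35116 promoters in the table hold it in 4.74% of cases. For GGGCGG the shares are 52.2% of the 23 genes and 34.0% of all promoters, and for CCAAT 26.1% and 20.4%. A gene counted here when any of its listed promoters held the element, and these motifs were chosen after the levels were known. KRT18, MMP3 and MMP1 have no entry.

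The 4 genes taken as markers of the line were all present, in an order of VIM, MMP10, ALDH1A1 and KRT18 that was the same in each library. Vimentin, VIM, the intermediate filament of mesenchymal cells, had 828, 652 and 673 FPKM, with replicate 1 above the others. MMP10, stromelysin-2, had 272, 273 and 287 FPKM. ALDH1A1, an enzyme that makes retinoic acid, had 121, 109 and 119 FPKM. The keratin KRT18, an intermediate filament of simple epithelia, had 23.4, 19.8 and 27.0 FPKM. No library was the highest in all 4. VIM was 30.7 times KRT18 per length, and KRT8, which pairs with KRT18 in filaments, was at 1.23, 1.28 and 1.64 FPKM, so KRT18 was 16.9 times its partner.

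Most markers of the ovarian surface were not seen. Of 28 such genes 25 had their own locus, and 7 of these (28.0%) were present, against 63.0% of all coding genes. Beside ALDH1A1, KRT18 and KRT8 these were NR2F1 at 16.6 ± 0.150 FPKM, LHX2 at 6.70 ± 0.424, HSD17B1 at 4.23 ± 0.147 and NR2F2 at 3.27 ± 0.356. NR2F1, LHX2 and NR2F2 encode transcription factors, and HSD17B1 is a steroid-converting enzyme. Another 16 of the 25 were under 0.1 FPKM, including the defining factors and surface proteins WT1, GATA6, MSLN, CALB2, UPK3B, LHX9 and KRT7. GATA4 and BNC1 were listed at 0 in every DMSO library. The label of normal ovarian epithelial cells thus has 7 of these markers present, and the other 18, all under 1 FPKM, go against it. The lists of cell types are a description of 1 cell line and name no other type.

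Markers of other ovarian and accompanying cells were mostly low as well, in lists to be read against the 63.0% of all coding genes present. The fallopian tube and Muellerian list had 0 of 8 members present, with PAX8 at 0.0067 FPKM and FOXJ1 listed at 0. Leukocyte markers had 0 of 7 present, and their summed level was 0.0667 FPKM. For endothelial cells 2 of 6 were present, EGFL7 at 9.75 ± 1.3 FPKM and ESAM at 1.05 ± 0.123, while CDH5 and TIE1 were listed at 0. Germ cell markers had 1 of 5 present, the egg-coat gene ZP3 at 1.5 FPKM. Of 12 granulosa cell genes 4 (33.3%) were present. FOXL2, the ovarian factor of granulosa cells, was at 7.70, 6.13 and 6.92 FPKM, followed by HSD17B1, the gap junction gene GJA1 at 2.85 ± 0.255 and INHA at 1.52 ± 0.312. CYP19A1, AMHR2, FST and NR5A1 of the same list were under 0.1. Of the steroidogenic list only the general electron carriers FDX1 (15.4 FPKM) and POR (9.78 FPKM) and the lipoprotein receptor SCARB1 (10.5 FPKM) were present, and STAR was listed at 0.

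Contractile and fibroblast genes split within their lists. Of 9 smooth muscle and pericyte genes 6 (66.7%) were present, a share near the 63.0% of all coding genes. TAGLN, an actin-bundling protein, led with 68.0, 68.8 and 70.8 FPKM, followed by ACTA2 at 14.5, 13.7 and 15.8 FPKM and CNN1 at 6.11, 5.46 and 5.43 FPKM. The smooth muscle myosin MYH11 was at 0.067 FPKM. In the stroma list 5 of 14 were present, with S100A4 at 55.7, 47.4 and 69.3 FPKM and the fibrillar collagen COL3A1 at 31.4, 30.3 and 32.1 FPKM. DCN, MFAP5 and TCF21 were listed at 0 in each DMSO library. Of 11 neural and melanocytic genes 4 (36.4%) were present. NES, an intermediate filament of progenitor cells, had 84.0, 80.1 and 81.8 FPKM, and the neuronal enolase ENO2 had 26.7, 26.4 and 48.0 FPKM. The neuronal genes SYP and MAP2 were at 1.54 ± 0.0917 and 1.14 ± 0.199 FPKM. SOX10, GFAP, NEFL and DCT of that list were under 0.1 FPKM.

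Epithelial cell contacts were represented in part. Of 21 junction genes 8 (38.1%) were present, against 63.0% of all coding genes. Among them were the plakoglobin JUP at 12.7 ± 1.32 FPKM, CLDN1 at 10.6 ± 1.26, the desmoglein DSG2 at 9.63 ± 0.672 and TJP1 at 9.20 ± 0.162. OCLN at 6.58 ± 0.544, DSP at 1.88 and PKP3 at 1.79 were present as well. CDH1, the classical epithelial cadherin, was at 0.010 FPKM, EPCAM at 0.437 and CLDN4 at 0.050. The splicing factors ESRP1 and ESRP2 of epithelia were under 0.1. Keratins had 3 of 14 (21.4%) present, KRT18, KRT10 (5.96 FPKM) and KRT8, and KRT5, KRT6A, KRT16, KRT80 and KRT81 were listed at 0. Mesenchymal factors and cadherins had 4 of 19 (21.1%) present, VIM, ALCAM (16.9 ± 1.17 FPKM), TWIST2 (6.21 ± 0.594) and ZEB1 (2.94 ± 0.243). CDH2, the neural cadherin, was at 0.590 FPKM, and CDH11, CDH13 and the hyaluronan receptor CD44 were listed at 0. SNAI1 lay just under the limit, at 0.820, 1.05 and 1.11 FPKM.

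**Figure D2:**
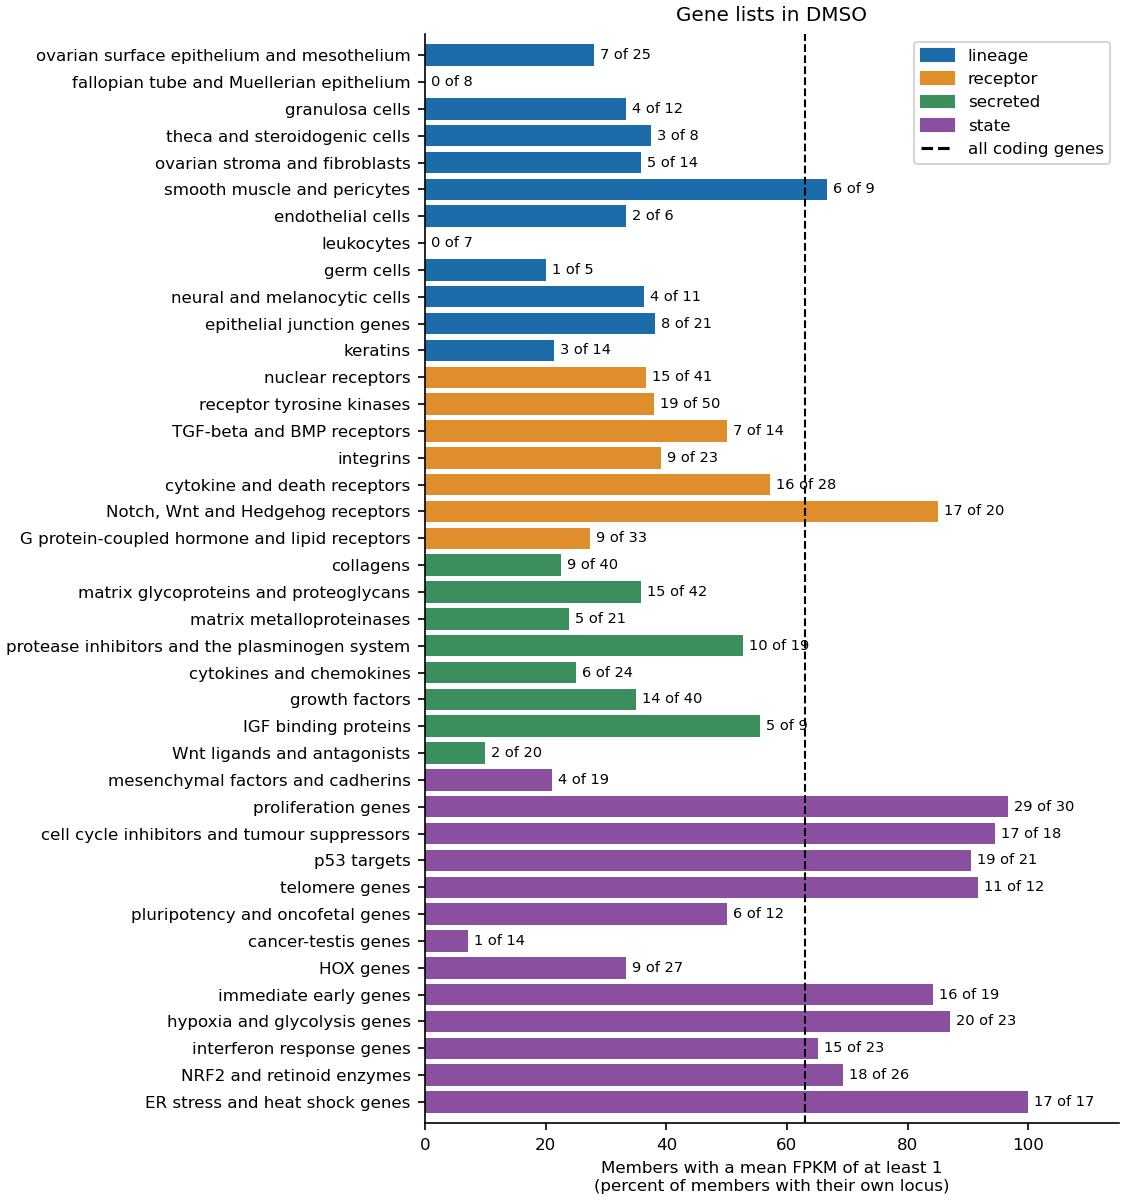
Bars give, for each of the 40 gene lists, the percent of members with their own locus that had a mean of at least 1 FPKM in DMSO, coloured by category, with the counts beside each bar. The dashed line marks 63.0%, the share among all coding genes. Lineage, receptor and secreted lists mostly lie below it. State lists lie on both sides, with proliferation genes and with ER stress and heat shock genes above it.

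Receptors for steroid hormones were nearly silent, while some retinoid and orphan nuclear receptors were present. Of 41 nuclear receptors 15 (36.6%) were present, against 63.0% of all coding genes. NR2F1 led, followed by ESRRA at 12.3, 15.4 and 16.9 FPKM, NR2C1 at 11.4 ± 0.876 and PPARD at 10.6 ± 0.0351. RXRB at 8.48 ± 1.13, NR1H2 at 6.46 ± 0.233 and RARG at 6.09 ± 0.885 came next. ESR1 was at 0.0033 FPKM, ESR2 at 0.013, the mineralocorticoid receptor NR3C2 at 0.0067 and the glucocorticoid receptor NR3C1 at 0.060. PGR has no locus by that name and was not analysed here. GPER1, a G protein-coupled receptor proposed to bind oestrogen, had 1.58, 2.02 and 2.96 FPKM.

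Of 50 receptor tyrosine kinases 19 (38%) were present, against 63.0% of all coding genes, and 20 were under 0.1 FPKM. The ephrin receptor EPHA2 was the highest at 17.8, 16.7 and 17.4 FPKM, followed by ERBB2 at 8.19, 7.95 and 8.03 FPKM and RYK at 7.59 ± 0.441. The collagen receptor DDR2 differed between libraries, at 3.84, 3.90 and 10.7 FPKM, with replicate 3 high. KIT and ALK were listed at 0. PDGFRA and ERBB3 are only on loci joined with other coding genes, so their own levels are not known. Of 14 TGF-beta and BMP receptors 7 were present, among them BMPR1A at 9.78 ± 0.0985 FPKM, ACVR1 at 5.97 ± 0.201 and TGFBR2 at 5.35 ± 0.227.

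Integrins were dominated by a single pair. ITGB1 had 231, 178 and 153 FPKM and ITGAV, its partner in some matrix receptors, had 148, 168 and 76.4 FPKM. Replicate 3 was the lowest for both. The next were ITGA5, the alpha chain of the fibronectin receptor, at 9.51 ± 0.515 FPKM and ITGA6 of the laminin receptors at 7.72 ± 1.91. In all, 9 of 23 (39.1%) were present, against 63.0% of all coding genes.

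Receptors of the Notch, Wnt and Hedgehog pathways were present for 17 of 20 genes (85%), against 63.0% of all coding genes. SMO, the Hedgehog signal transducer, had 19.2, 19.9 and 20.8 FPKM and the Wnt receptor FZD8 had 17.5, 16.3 and 17.5 FPKM. The Wnt co-receptors LRP5 and LRP6 were at 10.6 ± 0.110 and 7.09 ± 0.584 FPKM. Ligands of the Wnt family were mostly not seen: 2 of 20 Wnt ligands and antagonists were present, WNT3 at 4.90 ± 0.529 FPKM and WNT10B at 3.04 ± 0.210.

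Cytokine and death receptors were present for 16 of 28 genes (57.1%), a share near the 63.0% of all coding genes, and hormone and lipid receptors of the G protein-coupled class for 9 of 33. TNFRSF12A, the receptor of TWEAK, had 33.8, 31.1 and 22.4 FPKM, and TNFRSF10B, a TRAIL receptor, had 22, 22.2 and 21.1 FPKM. IFNGR2 and IL13RA1 followed at 21.01 ± 0.80 and 20.6 ± 0.599 FPKM. The G protein-coupled receptors were low: CALCRL, the receptor chain for calcitonin gene-related peptide and adrenomedullin, led at 7.25 ± 0.0900 FPKM, then S1PR5 at 5.48 ± 0.240 and ADORA2B at 4.67 ± 0.327.

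Among secreted products, matrix metalloproteinases ranged from high levels to 0. Only 5 of 21 (23.8%) were present, against 63.0% of all coding genes. MMP10 and MMP3 made up almost all of the summed level of 419 FPKM. MMP3, stromelysin-1, had 122.9, 124.1 and 127.5 FPKM, so MMP10 was 2.22 times MMP3 in FPKM. MMP15 was at 10.3 ± 0.105 FPKM, MMP1 at 3.18, 3.26 and 3.55 FPKM and MMP11 at 1.83 ± 0.0666. The gelatinase MMP9 was listed at 0 and MMP2 was at 0.0033 FPKM. MMP10, MMP1 and MMP3 are neighbours in a cluster of 8 metalloproteinase loci over 379 kb of chromosome 11. On GRCh38 MMP10 lies at chr11:102770502-102780628, MMP1 at chr11:102789919-102798160 and MMP3 at chr11:102835801-102843609, all on the minus strand. The genes on both sides, MMP20, MMP27, MMP8, MMP12 and MMP13, were between 0 and 0.053 FPKM, and MMP1, placed between the 2 high genes, was 37.5-fold below MMP3.

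**Figure D3:**
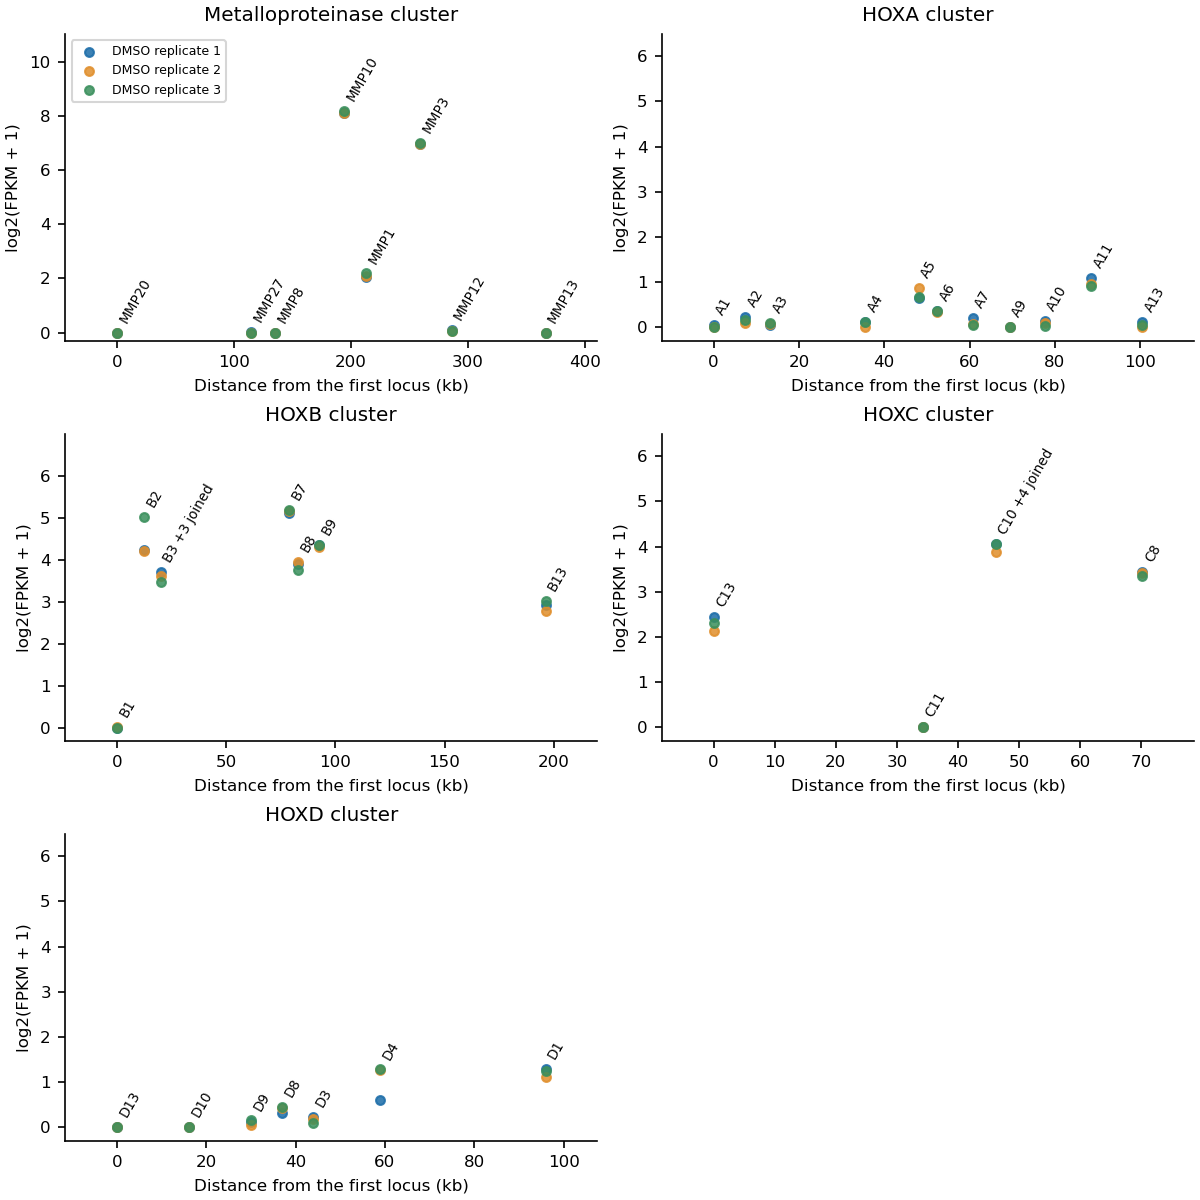
log2(FPKM + 1) of each locus in the 3 DMSO libraries against its distance in kb from the first locus of the metalloproteinase cluster and of the HOXA, HOXB, HOXC and HOXD clusters. MMP10 and MMP3 rise above MMP1, at 3.18 to 3.55 FPKM, and above the other neighbours at or near 0, and the HOXB cluster is the one with most loci present; labels with "joined" are loci that name several HOX genes.

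Inhibitors of proteolysis were led by TIMP1, which was 1.81 times MMP10 in FPKM. In that list 10 of 19 (52.6%) were present, against 63.0% of all coding genes. They included the collagen chaperone SERPINH1 at 67.8, 68.4 and 68.6 FPKM. The activators PLAT and PLAU were at 5.05 ± 0.145 and 5.05 ± 0.345 FPKM. TIMP3 was listed at 0.

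Collagens and matrix glycoproteins were represented by few genes. Of 40 collagens 9 (22.5%) were present, against 63.0% of all coding genes. COL5A2 had 73.9, 78.7 and 80.6 FPKM, and COL3A1 was second. COL5A1, with which COL5A2 forms type V collagen, was at 0.117 FPKM, COL1A1 at 0.493 and COL1A2 at 0.010. COL4A1 was at 0.0033 FPKM and COL4A2 was listed at 0. Of 42 matrix glycoproteins and proteoglycans 15 were present, with the laminin chains LAMC1 at 35.7 ± 1.38 FPKM and LAMB2 at 30.2 ± 0.147, the syndecans SDC1 at 28.9 ± 3.89 and SDC4 at 19.8 ± 0.254, and the YAP targets CCN1 at 26.9 ± 0.296 and CCN2 at 11.8 ± 0.916. Fibronectin FN1 and thrombospondin THBS1 were at 0.043 and 0.037 FPKM, and TNC, TGFBI and NID1 were listed at 0.

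Cytokines and growth factors were mostly absent. Of 24 cytokines and chemokines 6 (25%) were present, against 63.0% of all coding genes. HDGF, a growth factor that also binds chromatin, was the highest at 142, 133 and 141 FPKM. CXCL16 stood at 25.2 ± 1.48 FPKM and LIF at 9.84 ± 0.435. IL1A, IL1B and CXCL8 were under 0.1, and CXCL1, CXCL12 and TNF were listed at 0. Of 40 growth factors 14 (35%) were present, with VEGFB at 10.2 ± 0.417 FPKM, HGF at 6.88 ± 0.540 and FGF2 at 7.10, 5.90 and 3.40 FPKM. IGFBP6, which binds insulin-like growth factors, was at 34.6 ± 4.5 FPKM and IGFBP3 at 8.41 ± 0.425, whereas IGFBP2, IGFBP4, IGFBP5 and IGFBP7 were under 0.1. TGFB1, IL6 and INHBA have no locus by their name and were not analysed here.

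Genes of cell division were present almost throughout, with 29 of 30 (96.7%), against 63.0% of all coding genes. PCNA, the DNA polymerase clamp, had 170, 133 and 170 FPKM, CCNB1 had 97.4, 92.7 and 98.1 FPKM and the topoisomerase TOP2A had 84.9, 92.0 and 82.3 FPKM. TYMS and CCNA2 were at 96.9 ± 9.34 and 70.8 ± 2.91 FPKM. CDK6 was the exception at 0.0033 FPKM, while CDK4, the kinase with the same role, had 35.0, 47.4 and 50.2 FPKM. Cell cycle inhibitors and tumour suppressors were present for 17 of 18 genes, CDKN1B being the highest at 28.5 ± 1.61 FPKM and CDKN1A the one under the limit at 0.673. Targets of p53, a list that also holds CDKN1A, were present for 19 of 21 genes, for example BAX at 15.6 ± 1.10 FPKM and GADD45A at 12.1 ± 0.690.

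Oncofetal and positional genes were present selectively. HMGA1, an architectural chromatin protein, had 185, 120 and 196 FPKM, with replicate 2 low. Its relative HMGA2 had 6.51, 28.6 and 25.6 FPKM, with replicate 1 low. The RNA-binding proteins IGF2BP1, IGF2BP2 and IGF2BP3 had 14.1 ± 1.06, 22.3 ± 0.553 and 11.3 ± 0.913 FPKM. SALL4 was at 11.45 ± 0.666 FPKM and LIN28B at 6.01 ± 0.630, whereas POU5F1 and NANOG were under 0.1 FPKM and SOX2 was listed at 0. Of 14 cancer-testis genes 1 was present, against 63.0% of all coding genes. It was PRAME, at 51.3, 53.6 and 53.8 FPKM.

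HOX genes, which record position along the body axis, were present in the HOXB, HOXC and HOXD clusters. Of 27 HOX genes with their own locus 9 (33.3%) were present, against 63.0% of all coding genes. By cluster these were 5 of 6 in HOXB, 2 of 3 in HOXC, 2 of 7 in HOXD and 0 of 11 in HOXA. HOXB7 led with 33.9, 34.8 and 35.4 FPKM, but its locus spans those of HOXB8 and HOXB9 on the same strand. Its value may thus not be fully its own. HOXB2 had 17.8, 17.7 and 31.4 FPKM, HOXB9 had 19.2 ± 0.369 and HOXB8 had 13.65 ± 0.897. The joined locus of HOXB3, HOXB4, HOXB5 and HOXB6 had 11.2 ± 0.936 FPKM, and the joined locus of HOXC4, HOXC5, HOXC6, HOXC9 and HOXC10 had 14.95 ± 1.04. In HOXD the genes present were HOXD1 at 1.33 ± 0.146 FPKM and HOXD4 at 1.12 ± 0.523. HOXB13, at the far end of its cluster, had 6.62, 5.91 and 7.14 FPKM. In HOXA the highest was HOXA11 at 0.987 FPKM, just under the limit, and HOXA9 was listed at 0.

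Of the stress and metabolic lists, ER stress and heat shock, hypoxia and glycolysis and the immediate early genes had shares present above the 63.0% of all coding genes. All 17 genes of ER stress and heat shock with their own locus were present, as were 20 of 23 for hypoxia and glycolysis and 16 of 19 immediate early genes. For NRF2 and retinoid enzymes 18 of 26 (69.2%) were present, a share near that of all coding genes, and the other 8 were under 0.1 FPKM. NQO1, a quinone reductase and a textbook NRF2 target, had 155, 147 and 157 FPKM. AKR1C1, AKR1C2 and AKR1C3, also known as NRF2 targets, and the dioxin receptor AHR were under 0.1 FPKM. CA9, a textbook gene of hypoxia, was at 0.483 FPKM. The translation-stress factor ATF4 had 124, 119 and 130 FPKM.

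Genes of the interferon response were present for 15 of 23 (65.2%), a share near that of all coding genes. BST2 was the highest member of this list at 250, 251 and 277 FPKM; IFITM3, which is not in it, had 221, 216 and 243. ISG15 stood at 36.4 ± 1.61 FPKM, IFIT1 at 15.3 ± 0.231 and IFIT2 at 12.9 ± 1.15. MX1 was at 0.267 FPKM, IFI44L and IFI27 were under 0.1 and MX2 was listed at 0.

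The 3 libraries were close to each other. FPKM totals were 206774 to 212982, mitochondrial loci took 13.6 to 14.3% of them, and Pearson r across coding genes on the scale log2(FPKM + 1) was 0.994 to 0.995 between pairs of libraries. Replicate 2 had the lowest total and 23696 loci above 0, against 21358 and 21795 in replicates 1 and 3, and the excess lay mostly among pseudogenes and noncoding or unnamed loci. Spread was described by the SD of log2(FPKM + 1) over the 3 libraries for the 5543 coding genes at a mean of at least 5 FPKM. Its median was 0.076, and 3626 genes (65.4%) had an SD under 0.1. The same genes had a median SD of 0.063 within the BPA 0.25 nM libraries and 0.064 within the BPA 2500 nM libraries.

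The most even genes by this SD were UBQLN1 and EZH2. UBQLN1, a ubiquitin-binding shuttle, had 32.89, 32.92 and 32.91 FPKM, and EZH2, the methyltransferase of Polycomb complex 2, had 28.76, 28.75 and 28.78 FPKM. EHMT2, NPM3, SMARCC2, GATAD2A, ARHGDIA, SF3A3 and POLA1 were also among the lowest 10. The choice by spread fixes these values.

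At the other end, 106 of the 5543 genes (1.91%) had an SD over 0.5, and in most of them 2 libraries were alike and the other stood apart. TGOLN2, a trans-Golgi membrane protein, had 28.6, 28.6 and 4.44 FPKM. RAB5B, a GTPase of early endosomes, had 14.0, 13.6 and 1.68 FPKM, and LASP1, an actin-binding adaptor, had 41.3, 41.9 and 12.6 FPKM. In these 3 genes replicate 3 was low and the other libraries were alike. ADNP, a homeodomain protein of chromatin remodelling, had 14.1, 3.43 and 3.45 FPKM, with replicate 1 high. HNRNPA0, an RNA-binding protein, had 7.56, 35.0 and 6.90 FPKM, with replicate 2 high. DUSP3 and NRSN2 were high in replicate 3 alone, at 15.8 FPKM against 3.72 and 2.99, and at 20.9 FPKM against 4.63 and 4.91. HMGA2, HACD2 and MSRB3 were low in replicate 1 alone. The signal recognition particle subunit SRP9, the highest of the 20 widest genes, had 155, 153 and 51.9 FPKM.

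KCTD11 had the widest spread, with 3 different levels of 4.90, 0.600 and 17.4 FPKM. YTHDF2, a reader of methylated adenosine in RNA, also had 3, at 7.75, 18.3 and 32.7 FPKM. ADNP2, TRIM32, CENPB, RNF185, TUBB6, STX6 and AIF1L complete the 20 widest. The 20th, AIF1L, was followed by SUDS3 and DUSP6 at SDs of 0.846 and 0.838. Near the limit of 0.5 lay DAD1 and SPCS3 above it and NCLN and CALM3 below it, CALM3 with 102, 102 and 55.7 FPKM. A pair of equal values with the other library apart thus also occurred below the limit.

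The high and low values of the 106 genes did not fall to 1 library. Replicates 1, 2 and 3 held the highest value for 46, 34 and 26 genes and the lowest for 29, 41 and 36. Over all 5543 genes they held the highest value for 1947, 1690 and 1906 and the lowest for 1516, 2297 and 1730. The highest value was a median of 2.39 times the lowest, with a range of 1.92 to 28.95. The larger of the 2 gaps between the 3 ordered values took a median of 0.906 of the range on the log2 scale. Over all 5543 genes that median was 0.747. The gap passed 0.8 for 84 of the 106 (79.2%), against 2208 (39.8%) of all 5543. This describes the same 3 values that chose the genes and supports nothing further.

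The BPA libraries, which played no role in choosing these genes, spread in the same genes. Of the 106, 63 (59.4%) had an SD over 0.5 within at least 1 BPA group, against 159 (2.87%) of all 5543. For 85 genes the 3 libraries of a single BPA dose fell on both sides of the midpoint of the DMSO range, as they did for 3463 of all 5543 genes, most of them over a narrow range. TGOLN2 was at 4.20, 4.21 and 4.02 FPKM in the 0.25 nM libraries and at 4.33, 25.5 and 4.18 in the 2500 nM libraries. RNF185 was at 3.97, 3.11 and 3.55 and at 12.3, 3.59 and 12.2 FPKM in those libraries, where DMSO had 13.5, 12.5 and 3.68. MSRB3 was at 5.15, 17.3 and 18.9 and at 17.3, 18.2 and 4.82 FPKM, where DMSO had 4.82, 19.99 and 19.05. Both levels of each gene thus came back in other libraries, within as well as between groups. On the scale of FPKM + 1, 541 of the 636 BPA values (85.1%) lay within 1.2-fold of a DMSO value of the same gene, against 96.2% over all 5543 genes, whose DMSO values rarely leave room. Of the 636, 72 (11.3%) lay in the middle 33.3% of the DMSO range of log2(FPKM + 1), against 13.8% over all 5543 genes. Not all genes behaved so: NRSN2 stayed at 4.34 to 5.36 FPKM in all 6 BPA libraries, and CORO1C had 3 BPA values beyond 1.2-fold of any DMSO value.

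**Figure D4:**
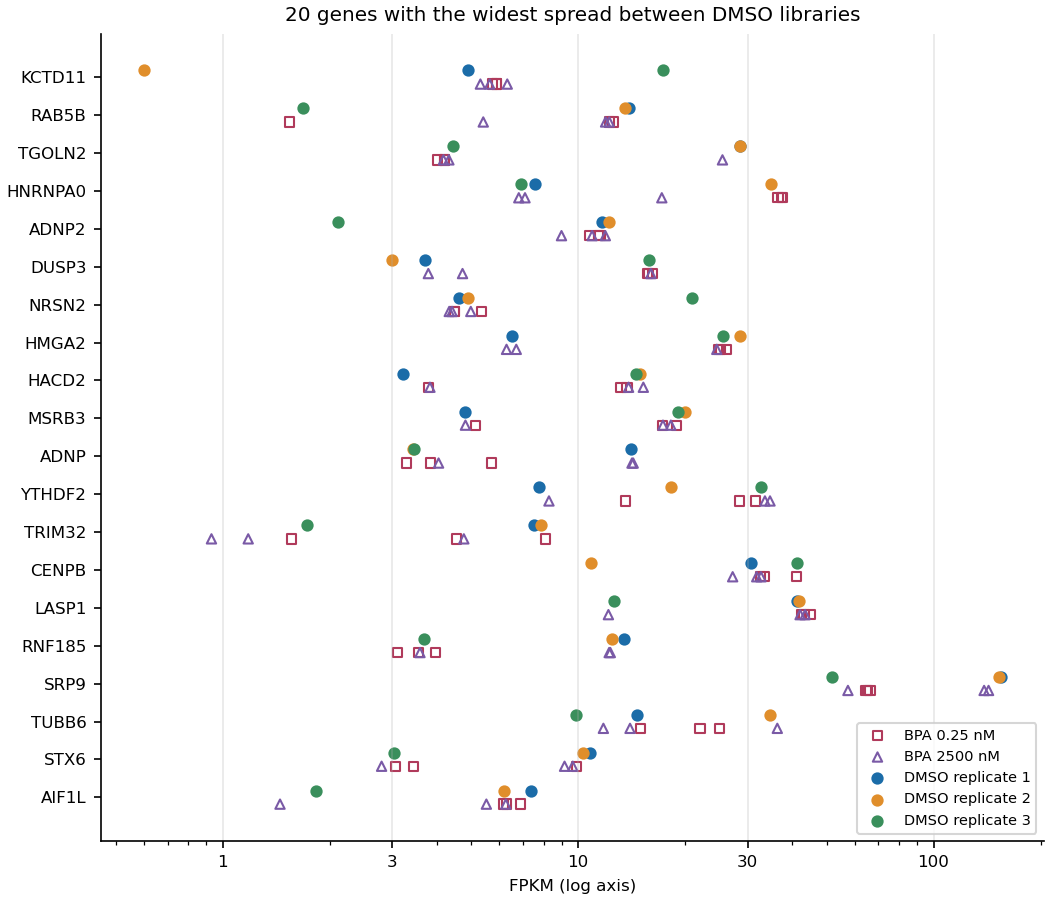
FPKM (log axis) of the 20 coding genes with the widest spread between DMSO libraries. Filled points are the 3 DMSO libraries and open symbols the 3 libraries of each BPA dose, offset downwards. For TGOLN2, HMGA2 and LASP1 the open symbols gather near the low and the high DMSO values.

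Features of transcript structure, which had not been used to choose them, were looked up for the genes of wide spread. In GENCODE 29 their longest 3′ untranslated region had a median of 2094 bases, against 1189 over all 5543 genes. The longest coding transcript of a gene was a median of 2.42 times its shortest, against 1.38, and was at least 2 times as long for 60 of 106 genes (56.6%) against 33.7% of all 5543. A single coding transcript was annotated for 21 of the 106 genes (19.8%), against 24.6% of all 5543, and these 21 include HNRNPA0, ADNP2, DUSP3, HACD2 and CENPB of the 20 widest. The median number of coding transcripts was 3.5, against 3. Their median level, 11.5 FPKM, was close to that of all 5543 genes, 11.7 FPKM. FPKM divides by transcript length, and whether the assignment of reads to transcripts of unequal length moves with the 2 levels was not tested. These features were looked up after the values had been seen.

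**Figure D5:**
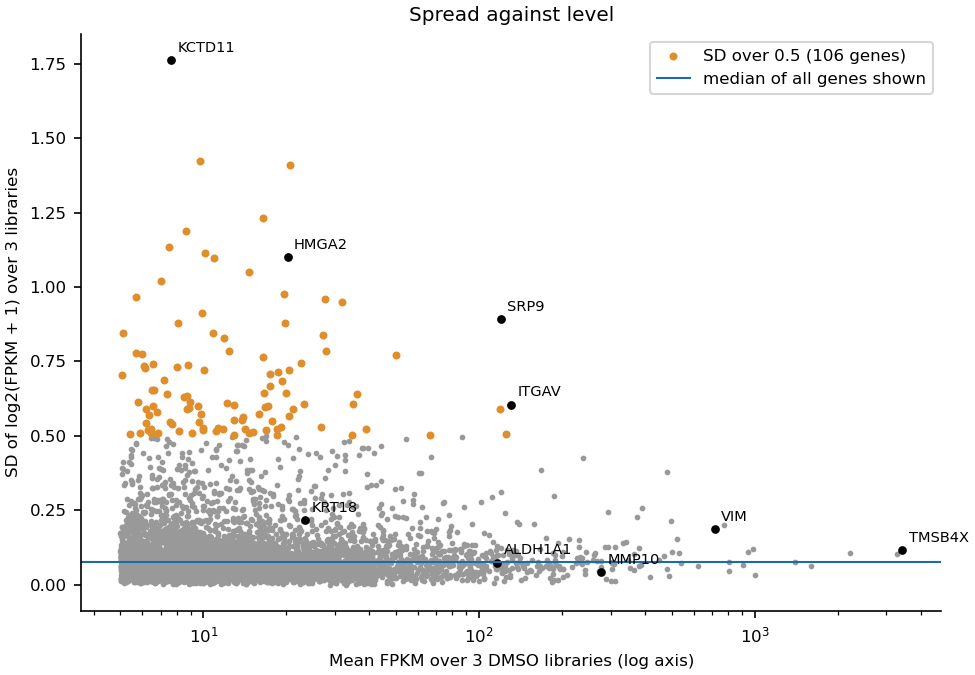
SD of log2(FPKM + 1) over the 3 DMSO libraries against mean FPKM (log axis) for 5543 coding genes, with the 106 genes over 0.5 in orange and the median of 0.076 as a line. ALDH1A1 and MMP10 lie near or below the line, and HMGA2, SRP9 and ITGAV lie far above it.

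Of 224 list members at or above 5 FPKM, each counted once, 8 (3.57%) had a wide spread, against 1.91% of all 5543 genes. DDR2, ITGAV, HMGA2, the Wnt pathway receptor LGR4 (10.95, 4.30 and 4.61 FPKM), the stress factor XBP1 (22.6, 9.17 and 20.6 FPKM), the glycolytic regulator PFKFB3 (3.21, 7.39 and 8.90 FPKM), the nucleotide enzyme RRM2 (24.3, 47.2 and 45.6 FPKM) and the cell cycle factor E2F1 (13.5, 6.71 and 13.2 FPKM) were those with an SD over 0.5. The 3 metalloproteinases and 2 collagens at or above 5 FPKM had SDs with medians of 0.027 and 0.052, under the 0.076 of all genes. This was not particular to them, since several other lists also had medians under 0.076, while others lay above it. Of 72 ribosomal protein genes 1, RPL21, exceeded 0.5, at 80.5, 141 and 155 FPKM, and pseudogene copies of it may share its reads.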

How the data were processed

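Per the labels' protocols, total RNA was read on an Illumina instrument, and 12 samples are listed. The authors deposited 1 FPKM value per locus and library. The submitters' processing notes list HISAT, UMI-tools, StringTie and edgeR, without versions, order or settings. They give hg19 as the build, but positions match GRCh38: 74.8% of 14123 Ensembl loci have the start and end of GENCODE 29. Depth is unknown, so precision was taken from the spread between libraries, and no interval or limit for values of 0 was computed. The E2 libraries were not used here.

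From the deposited FPKM, means and SDs over the 3 DMSO libraries and the SD of log2(FPKM + 1) were computed (Python 3.11.15, pandas 2.3.3, numpy 2.4.6, matplotlib 3.10.9). Coding genes are loci naming 1 protein-coding gene of GENCODE 29 by its older or current symbol. 642 loci naming several, 73 on another strand or chromosome and 42 second or displaced loci were left out. With 1 group there was no test. The members, the 40 gene lists (935 genes: 781 with their own locus, 42 joined or uncertain, 112 with no locus by name) and the rules were chosen with earlier results of these data known. The text names the 30 highest genes, the 4 markers, the highest and the defining low members of each list, the 20 widest and 10 most even genes and genes near a limit. Others (IFITM3, LGALS1, CORO1C, genes grouped by family, and list members of wide spread) were picked after their values were seen. A few genes chosen this way were left out of the text. The ranking by spread was tested on simulated data. Alternatives were other limits, scalings, pseudocounts, filters and leaving out each replicate.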

Additional observations from a re-analysis of the deposited data

How the results depend on the processing

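The number of coding genes present, 9211, was 9929 at a limit of 0.5 FPKM, 9008 with at least 1 FPKM in all 3 libraries, and 9203 to 9218 without 1 replicate. The share of the 100 highest genes, 27.2%, was 31.8% with loci naming several coding genes, 24.8% without mitochondrial loci, and 27.1 to 27.5% without 1 replicate. Of the 30 highest genes, 28 to 30 were shared with the ranking under each alternative run. The run with 28 left out mitochondrial loci and so could not keep MT-ND1 and MT-ND3. Without 1 replicate VIM was at 662 to 751 FPKM, MMP10 at 273 to 280, ALDH1A1 at 114 to 120 and KRT18 at 21.6 to 25.2. Leaving out 1 of 3 values cannot move a mean by 1 SD, so these ranges only describe the replicates. Rescaling used factors of 0.998 to 1.003 and could hardly move them. Of the 40 lists, 39 kept their count of members present within 1.5-fold at a limit of 0.5 FPKM (exception: mesenchymal factors and cadherins), and 39 with at least 1 FPKM in all libraries and without replicate 1 (exception: endothelial cells). The median SD, 0.076, lay between 0.053 and 0.082 over its alternatives. The 106 genes of wide spread, a count whose alternatives were chosen after seeing the data, became 60 at a mean of at least 10 FPKM and 177 at a mean of at least 1 FPKM, since these filters change how many genes enter, and 114 to 120 without 1 replicate. Of the 20 widest genes, 11 were shared at a mean of at least 10 FPKM, 12 at a mean of at least 1 FPKM and 13 under the coefficient of variation, so that ranking depends on the filter and the scale. No paired analysis was possible because only 1 group was described and no test was made. Joined loci, copies that share reads and unknown depth limit the levels of single genes.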

Other observations

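Transcription factors by the deposited gene ontology annotation, a grouping chosen after the values were seen, gave a further view of these cells. Of 736 genes with the term for DNA-binding transcription factor activity, 453 (61.5%) were present, close to the 63.0% of all coding genes. Beside ID3, YBX1 (224, 207 and 221 FPKM), HNRNPAB and ATF4, the upper ranks held the histone deacetylase HDAC1 at 66.8 ± 0.986 FPKM, the cell cycle factor MYBL2 at 51.3 ± 1.93, the HOX cofactor PBX2 at 41.4 ± 3.21 and TBX2, a T-box repressor of developing tissues, at 35.5 ± 0.921. ID1 and ID2, relatives of ID3, had 81.9 ± 6.70 and 36.5 ± 0.915 FPKM. Genes with the term for extracellular region were present in 37.2% of 1490 cases, and those for extracellular matrix in 23.96% of 217.

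Some structural RNAs, picked after their values were seen, differed between the libraries. RN7SL1, the RNA of the signal recognition particle, had 117.5, 326.7 and 643.9 FPKM in replicates 1, 2 and 3, and the joined locus of RN7SL3 and RN7SL2 had 94.1, 345 and 658 FPKM. Replicate 1 was low and replicate 3 high in both. RN7SL1 also ranged from 236 to 650 FPKM over the 6 BPA libraries. RN7SK had 6.89, 29.7 and 13.5 FPKM and RMRP, the RNA of RNase MRP, had 4.64, 16.3 and 11.9 FPKM, both highest in replicate 2. By contrast, the long noncoding RNA NORAD had 49.3, 55.7 and 47.2 FPKM. The cause of the differences in these RNAs was not tested. Small and structural RNAs took 0.851, 1.28 and 1.61% of all FPKM in replicates 1, 2 and 3.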
